A study of Mus musculus with 3 samples.

Results

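The Day 3 slide of a skin wound series captured RNA well outside the spots that were marked as tissue. The unmarked tissue described here consists of 601 of the slide's 4992 spots (14976 spots over the 3 slides of the series). A spot was taken when the position list left it unmarked, when it held 500 or more unique molecular identifiers (UMIs, counted molecules), and when none of its 6 hexagonal neighbours was marked. The UMI total therefore chose the spots, and that total is given only as a description. The rule reads no gene's level, although it was set with earlier results of these data known.

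Full-thickness wounds were made in the dorsal skin of C57BL/6J mice, and fresh frozen wound tissue was taken on Day 3, Day 7 and Day 14. Per the methods, the mice were male and 7 to 12 weeks old, and wounds were made and harvested with biopsy punches, so that a section can include tissue around and below the wound. Each day had 1 section on a Visium slide, on which spots carrying positional barcodes capture polyadenylated RNA from the tissue above them, and the study describes spots selected to show a region of interest. With 1 section per day there is no replicate, so no test was made and all intervals cover counting error only.

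Mouse back skin lies on a thin striated muscle, the panniculus carnosus, with fat and loose fascia around it, and skeletal muscle and the body wall lie deeper. In the first days after wounding, neutrophils enter the open wound in large numbers and many of them end in the crust that covers it, while keratinocytes at the margin switch on wound keratins such as *Krt6* and *Krt16*. A Visium spot is a small region that can hold several cells of different types, so the lists of marker genes used below describe the RNA of a spot and not a cell type. Fewer cells of a type and less RNA per cell cannot be told apart in such pools.

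The unmarked spots held 1085537 UMIs, which was 31.2% of all UMIs of the slide. The lowest unmarked spot had 501 UMIs, the median 1032 and the highest 15297. The 520 marked spots with 500 or more UMIs, used for comparison throughout, held 1754420 UMIs with a median of 1987. A further 73 unmarked spots with 500 or more UMIs touched a marked spot and were left out, and 3654 unmarked spots fell under 500 UMIs with a median of 65. Just outside the threshold, the 131 unmarked spots with 400 to under 500 UMIs had 33922 counts per 1000000 UMIs (CPM) of the shared muscle list and 21888 CPM of the epidermis list. Just inside it, the 93 spots with 500 to under 600 UMIs had 32604 and 22025 CPM of these lists. The Day 7 and Day 14 slides held 2015 and 1673 spots under the same rule. All 4992 positional barcodes occur on each of the 3 slides, as the array design has it.

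The unmarked spots lay together. Of the 601 spots, 585 had another unmarked spot of the rule beside them, and 27 connected pieces were found, of which 5 held 10 or more spots. The largest piece had 471 spots and 89.0% of the unmarked UMIs, and it ran below and around one end of the marked tissue. The other 4 pieces of that size, with 32, 30, 20 and 11 spots, lay on the opposite side. The marked spots gave the orientation: in the 197 marked spots nearest the first marked row of their own columns the epidermis list reached 16234 CPM, against 1022 in the 143 nearest the last, and the shared muscle list 10080 against 65302. Spots before the first marked row of their own columns are called the surface side (134 spots, 123518 UMIs, median 639.5), and spots past the last marked row the deep side (396 spots, 861733 UMIs, median 1421.5). Beyond the end of the marked tissue lay 63 spots, and 8 lay between marked rows. These sides were set after the map had been seen.

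**Figure D1:**
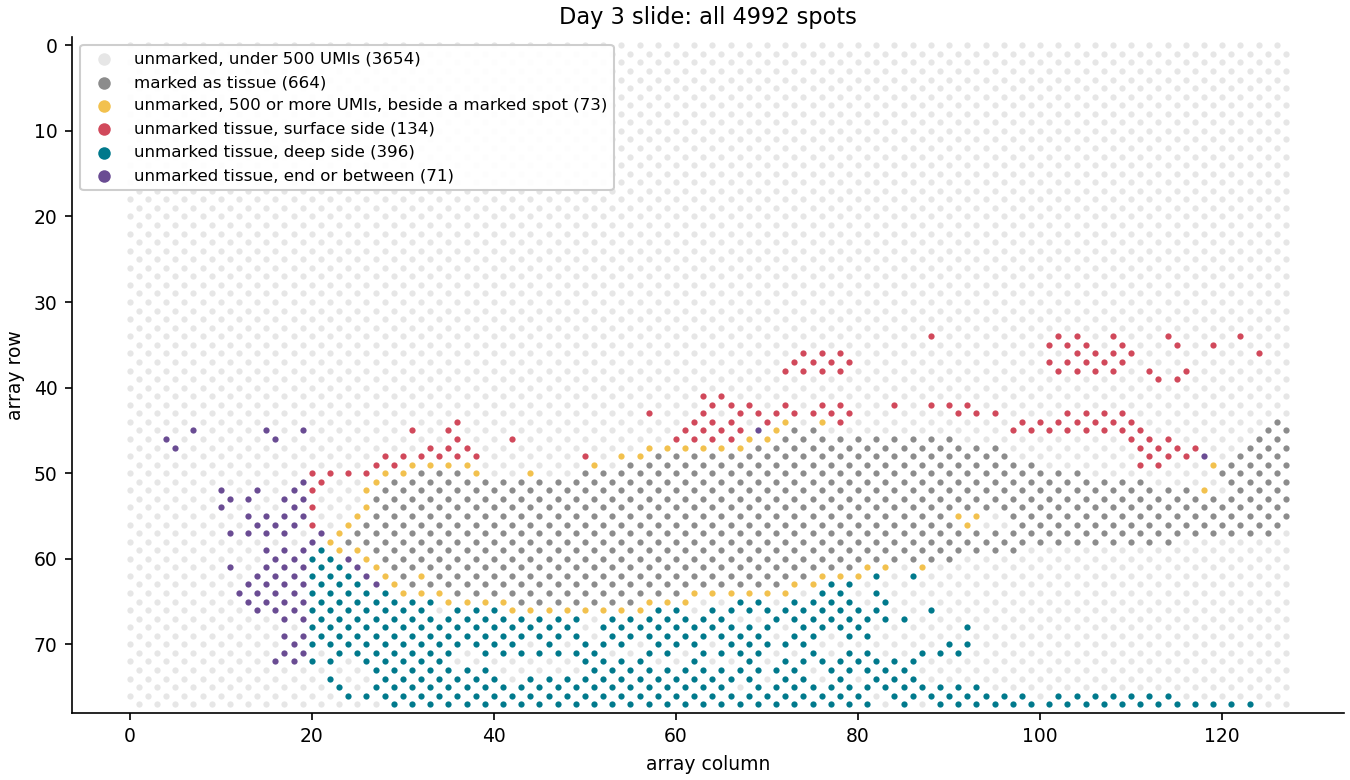
Array row against array column of all 4992 spots of the Day 3 slide, 1 point per spot, with marked spots in dark grey, unmarked spots under 500 UMIs in light grey, spots left out beside marked ones in yellow, and the unmarked tissue in red (surface), blue-green (deep) and purple (end or between). The 396 deep-side spots form a broad band under the marked tissue, and the 134 surface-side spots form patches above it.

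Over all genes, the unmarked tissue was richer in a small set of abundant muscle, mitochondrial and blood transcripts and poorer in a large number of other genes. Of 7186 genes with 50 or more UMIs over both groups, 407 (5.66%) were called higher in unmarked spots, meaning that the ratio of pooled CPM was past 2-fold and its 95% interval left out equality, and 2167 (30.2%) were called lower. The median gene had a log2 ratio of -0.59, so an average gene was lower, and the list values below are to be read against that median. The split depends on the scaling: with TMM factors 970 genes were called higher and 830 lower, and with DESeq2 size factors 1028 and 774. The 10 transcripts with the highest level in unmarked tissue were *mt-Co3* (31482 CPM), *Acta1* (23783), *mt-Co1* (22775), *mt-Atp6* (21765), *mt-Co2* (16952), *Gm42418* (16914), *Ckm* (14747), *mt-Cytb* (14606), *Mylpf* (14039) and *mt-Nd2* (12875). Mitochondrial transcripts, skeletal actin, muscle creatine kinase and the fast myosin light chain thus made up all but *Gm42418*, a non-coding gene that overlaps ribosomal RNA sequence.

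The deep side held skeletal muscle RNA. The shared muscle list of 20 contractile and metabolic genes came to 60886 CPM (95% interval 60423 to 61352) in all unmarked spots and 23225 (23000 to 23452) in marked spots, a log2 ratio of 1.39. On the deep side it reached 67103 CPM (log2 ratio 1.53, interval 1.51 to 1.55). Of its 20 genes, 17 were called higher in unmarked spots and 0 lower. *Acta1*, skeletal alpha actin, was at 23783 against 9772 CPM, *Ckm*, muscle creatine kinase, at 14747 against 5344, and *Mb*, the oxygen store myoglobin, at 3243 against 775. *Mb* (log2 ratio 2.06, interval 1.97 to 2.16) exceeded *Acta1* (1.28, 1.26 to 1.31) in its ratio.

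Muscle RNA was not confined to unmarked tissue. The 4 muscle lists together made up between 0.79% and 29.0% of the UMIs of an unmarked spot, with a median of 13.8%, and between 0.72% and 30.0% of a marked spot, with a median of 5.26%. The ranges overlap almost fully, and 0 unmarked spots lay above the richest marked spot. On the deep side the median was 18.2%, and on the surface side 3.90%.

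Most of the muscle RNA was of the fast type. All 14 measured genes of the fast fibre list were called higher in unmarked spots (84256 against 31046 CPM, log2 ratio 1.44). *Myh4*, the myosin heavy chain of the fastest fibres, had 10797 against 3997 CPM, and *Tnnt3*, fast troponin T, 11110 against 4269. Genes of the slow fibre list were at lower levels (2147 against 1194 CPM, log2 ratio 0.85), with 4 of 8 measured genes called higher and 0 lower. *Myh7*, the slow myosin, had 397 against 183 CPM, while *Atp2a2*, the calcium pump of slow fibres that other cells also express, had 250 against 275 and went against its list. Relative to muscle RNA the direction turned: per 100 UMIs of the shared and fast muscle lists, the slow list had 1.48 UMIs in unmarked and 2.20 in marked spots (log2 ratio -0.57, interval -0.66 to -0.49).

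The 4 adult myosin heavy chain genes were compared with each other, without reference to other tissues. The values are shares of their UMIs and not of fibres. *Myh4* took 70.6% (69.9 to 71.3) of their UMIs in unmarked spots and 74.8% (73.9 to 75.7) in marked spots, *Myh1* took 18.0% and 13.6%, and *Myh7* took 2.60% (2.36 to 2.85) and 3.43% (3.07 to 3.81). Within the deep side this changed with distance from marked tissue, measured in pitches, the spacing between neighbouring spots. *Myh4* took 72.0%, 77.9% and 74.8% at under 4, 4 to 7 and 7 to 10 pitches, but 50.7% (48.8 to 52.6) at 10 or more, where *Myh1* took 33.7% (31.9 to 35.5) and *Myh2* 12.5% (11.3 to 13.8). The muscle RNA farthest from the marked tissue thus had the largest *Myh1* share of these bins. These genes are similar in sequence, and how the authors' counting split reads that fit several of them is not given in the sources used here.

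Genes of muscle regeneration gave few molecules. *Myog* and *Myod1*, regulators of muscle formation, had 16 UMIs each in unmarked spots against 13 and 3 in marked spots, *Myh3* and *Myh8*, the embryonic and neonatal myosins, had 2 each against 3 each, and 0 UMIs of *Chrng* were found in unmarked spots. Of the regenerating muscle list, 1 of 12 genes reached 50 UMIs, *Actc1*, at 30.4 against 11.4 CPM. The whole list had a log2 ratio of 0.46 (interval 0.03 to 0.89). Per 100 UMIs of the shared and fast muscle lists it was at 0.055 in unmarked and 0.107 in marked spots (log2 ratio -0.96, interval -1.39 to -0.53). Genes of muscle stress and wasting were at 2381 against 1023 CPM, with 5 of 9 measured genes called higher. *Cryab*, a small heat shock protein abundant in muscle, was at 1170 against 390 CPM. Per 100 UMIs of the shared and fast muscle lists, this stress list was at 1.64 in unmarked and 1.89 in marked spots. It was at 2.44 on the surface side (log2 ratio 0.37, interval 0.11 to 0.62). RNA of other tissues can enter these values.

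Mitochondrial transcripts were also higher in CPM. All 10 mitochondrial transcripts of the list were called higher in unmarked spots (150151 against 64292 CPM), and the median spot gave 12.7% of its UMIs to them against 6.85% in marked spots. Per 100 UMIs of the shared and fast muscle lists they were lower, at 103 against 118 (log2 ratio -0.20, interval -0.21 to -0.18). On the surface side, where muscle RNA was scarce, this value was 178 (log2 ratio 0.59, interval 0.56 to 0.62). Mitochondrial RNA of other tissues enters these values, so they do not give a level within muscle. Some nuclear genes of muscle metabolism were among the highest single ratios and are given as such. *Cox7a1*, a muscle form of a respiratory chain subunit, had a log2 ratio of 2.05 (1.88 to 2.23), and *Perm1*, a muscle regulator of oxidative metabolism, 2.57 (1.80 to 3.41). *Mss51* and *Igfn1*, both expressed in skeletal muscle, had 95 and 116 UMIs in unmarked spots against 15 and 21 in marked spots, and 0 on the surface side. *Cox7a1* and *Cox8b* also carried the thermogenic fat list (3006 against 1606 CPM), whose defining gene *Ucp1* had 0 UMIs in both groups and whose member *Cidea* went the other way with 13 against 165 UMIs.

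White fat formed a second deep component. The white fat list was at 15153 CPM in unmarked spots, 8372 in marked spots and 17328 on the deep side (log2 ratio 1.05, interval 1.02 to 1.08). In unmarked spots 4 of its 14 measured genes were called higher and 0 lower, and on the deep side 9 of 14. *Adipoq*, the hormone adiponectin, was at 343 against 177 CPM, *Cfd*, the adipokine adipsin, at 4336 against 2436, and *Retn*, the hormone resistin, at 502 against 232. *Car3*, carbonic anhydrase of fat and muscle, was at 4630 against 2225. The fat RNA was concentrated: the highest unmarked spot gave 11.6% of its UMIs to the list, the median 0.63%, and 49 spots grouped by clustering held it at 63750 CPM. Marked spots had a similar spread, with a highest of 12.9% and a median of 0.57%, and 0 unmarked spots lay above the richest marked spot. By distance, the list was at 22848 CPM under 4 pitches, 18359 at 4 to 7, 12929 at 7 to 10 and 14168 at 10 or more.

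**Figure D2:**
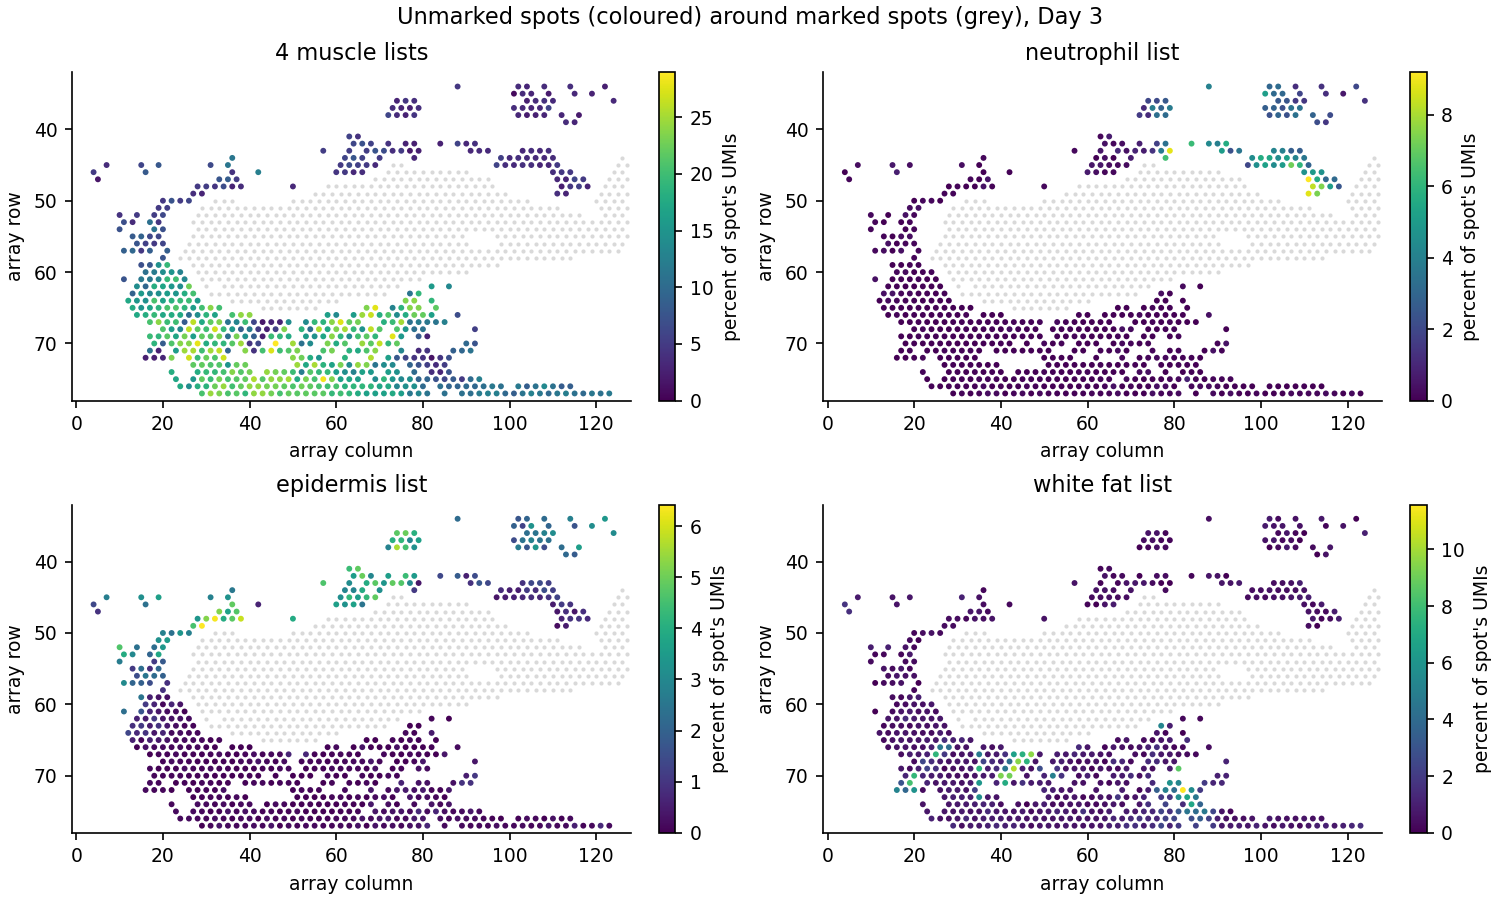
Percent of each unmarked spot's UMIs (colour) from the 4 muscle lists, the neutrophil, the epidermis and the white fat list, by array position, with marked spots in grey. Muscle fills the deep band, neutrophil genes reach 9.20% and epidermal genes 6.42% in surface-side patches, and fat reaches 11.6% in a few clumps within the deep band.

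Haemoglobin transcripts marked the deepest rows. The red blood cell list was at 16410 CPM in unmarked spots and 4325 in marked spots (log2 ratio 1.92, interval 1.88 to 1.96), and all 5 measured genes were called higher. *Hbb-bs*, an adult beta globin, was at 6892 against 1606 CPM, *Hba-a1*, an alpha globin, at 3783 against 933, and *Alas2*, the haem synthesis enzyme of red cells, had 50 against 18 UMIs. On the deep side the list was at 8995 and 7781 CPM in the nearer bins (under 4 and 4 to 7 pitches) and at 35832 and 27214 CPM in the farther ones. A single unmarked spot gave 48.2% of its UMIs to the list, the highest marked spot gave 11.1%, and 15 unmarked spots lay above that marked spot. The alpha globin genes and the beta globin genes are near-identical pairs, so values of their single members are uncertain.

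The gene with the highest ratio in the unmarked tissue, ranked by the interval bound nearer to equality, was *Msln*, mesothelin, a surface protein of the mesothelium that lines body cavities (chromosome 17, 25748613 to 25754378, minus strand, GRCm38). It had 74 UMIs in 41 unmarked spots and 7 UMIs in 6 marked spots (68.2 against 3.99 CPM, log2 ratio 4.09, interval 2.98 to 5.46). *Upk3b*, a uroplakin also made by mesothelium, had 70 UMIs in 39 spots against 11 UMIs in 11 spots (log2 ratio 3.36, 2.44 to 4.43). Both were found at the same depth: 65 of 74 *Msln* UMIs and 59 of 70 *Upk3b* UMIs came from array rows 72 to 77, which are the last rows of the array and held 198 of the unmarked spots with 34.5% of their UMIs. A list of 14 mesothelial genes, put together after these values had been seen, went from 17.0 CPM (4.64 to 43.6) on the deep side under 4 pitches to 134 at 4 to 7, 636 (537 to 749) at 7 to 10 and 617 (505 to 747) at 10 or more, with 34.2 in marked spots. Its other members had few UMIs each, among them *Gpm6a* with 31 against 7, *Cldn15* with 20 against 3, *Krt19* with 18 against 6 and *Upk1b* with 15 against 5, and *Wt1* had 4 against 1. Only *Msln* and *Upk3b* reached 50 UMIs. The list was absent from most spots, with 509 of 601 unmarked spots at 0.

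Some matrix genes known from tendon and cartilage were higher in unmarked spots, while the tendon markers *Tnmd* and *Mkx* were not. *Thbs4*, a thrombospondin of tendon and muscle attachment, had 61 UMIs against 10 (log2 ratio 3.30, interval 2.33 to 4.43), and *Fmod*, the collagen-binding fibromodulin, 73 against 21 (2.49, 1.77 to 3.26). *Chad*, chondroadherin, had 38 against 5 UMIs and *Comp*, cartilage oligomeric matrix protein, 18 against 3. The median of the *Comp* UMIs lay in row 68 and that of *Chad*, *Fmod* and *Thbs4* in row 69, above the row 74 of *Msln* and *Upk3b*. *Tnmd*, the tendon membrane protein tenomodulin, went the other way with 13 against 31 UMIs, and *Mkx*, a tendon transcription factor, had 0 against 19. *Scx*, another one, had 6 against 8 UMIs, and *Kera*, also of the tendon list, 5 against 3. The pools held 1085537 unmarked and 1754420 marked UMIs, so neither *Scx* nor *Kera* was lower in CPM, and both counts are small. Of the cartilage genes *Col2a1* had 8 against 0 UMIs and *Acan* 1 against 0. No gene of the bone and cartilage list reached 50 UMIs, so none was measured for a call, and the tendon list, also put together after values had been seen, had only *Thbs4* and *Fmod* measured.

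**Figure D3:**
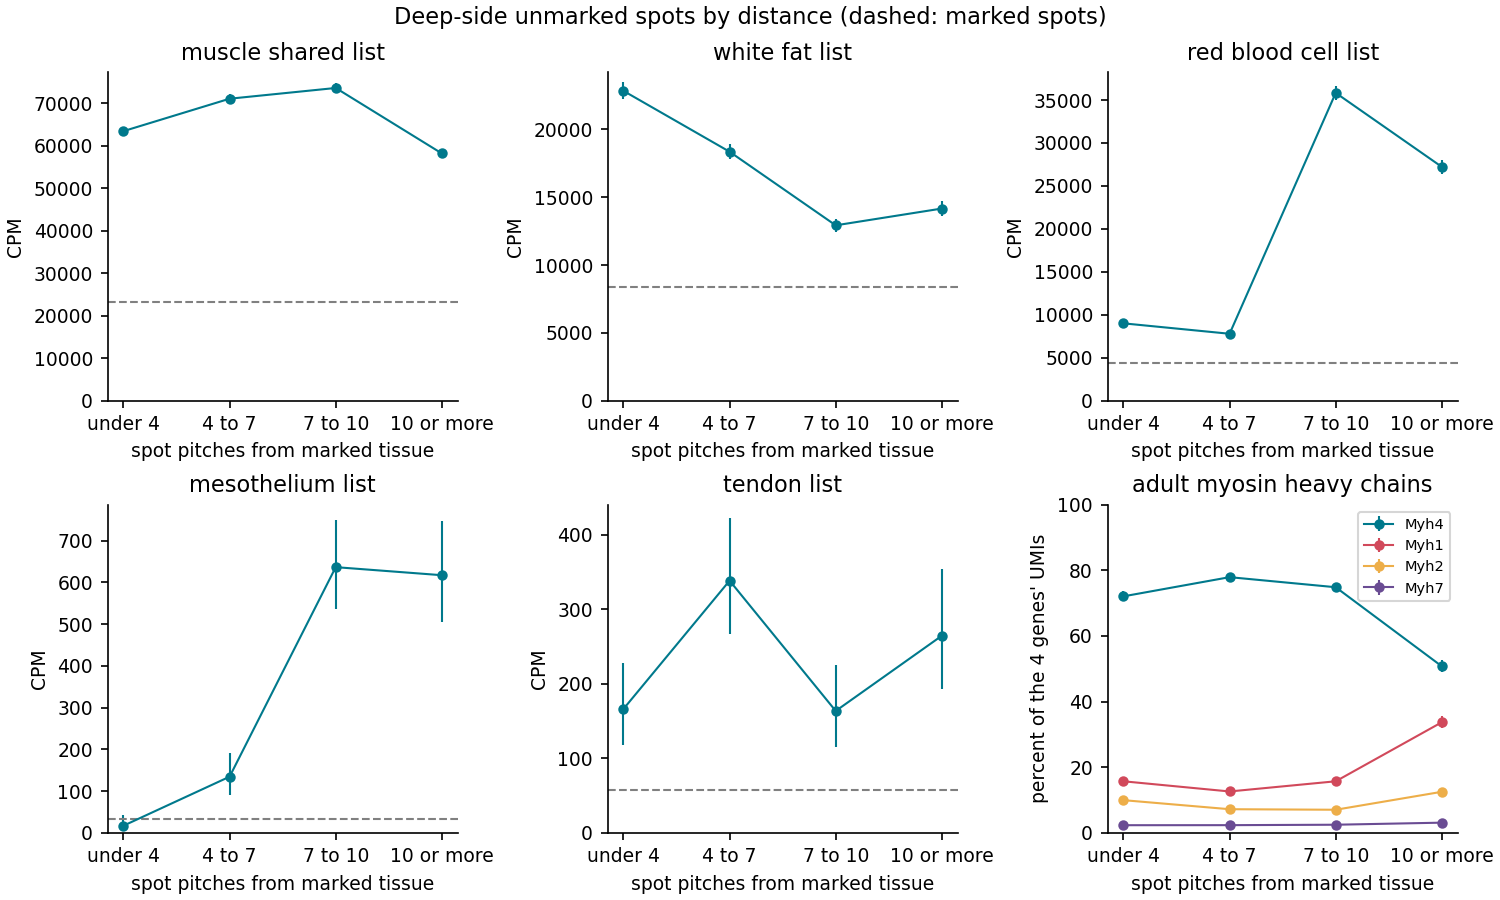
Pooled CPM of 5 gene lists, and percent of each of 4 myosin heavy chain genes, in deep-side unmarked spots by distance from the nearest marked spot, with 95% counting intervals and the marked spots as a dashed line. Red blood cell and mesothelial genes are high beyond 7 pitches, and the *Myh1* share is 33.7% at 10 or more.

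The surface side held a different RNA: neutrophil and cytokine transcripts far above those of the marked tissue. Of 5932 genes compared there, 387 (6.52%) were called higher and 517 (8.72%) lower than in marked spots, with a median log2 ratio of -0.30. The neutrophil list was at 29089 CPM (28145 to 30056) on the surface side, 2452 in marked spots and 502 on the deep side, and all 14 of its measured genes were called higher. *S100a9* and *S100a8*, the calprotectin subunits that fill neutrophil cytoplasm, were at 11359 and 8638 CPM against 846 and 618. *Trem1*, an activating receptor, was 15.6 times as high as in marked spots, and *Clec4d*, a lectin receptor, 11.0 times. *Ly6g*, the surface marker used to define mouse neutrophils, had only 1 UMI in unmarked and 2 in marked spots. Of 10 granule precursor genes, *Mpo*, *Elane*, *Ctsg* and *Camp* had 0 in both groups. That list as a whole had 52 UMIs in all unmarked spots and 69 in marked spots. On the surface side its log2 ratio was 2.85 (interval 2.22 to 3.46), with its 1 measured gene called higher.

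Cytokine genes were high on the same side. The list was at 25033 CPM on the surface side against 2225 in marked spots, with 9 of 12 measured genes called higher. *Ccl4*, a chemokine, had the highest ratio of all genes on the surface side, ranked by the interval bound nearer to equality, at 4914 against 247 CPM (log2 ratio 4.31, interval 4.13 to 4.49). *Il1b*, the cytokine interleukin 1 beta, was at 4339 against 260 CPM, *Cxcl2*, a chemokine that recruits neutrophils, at 9432 against 655, and *Il1rn*, the interleukin 1 receptor antagonist, at 1368 against 131. *Ccl7*, *Ccl2* and *Cxcl5* did not follow: *Ccl7*, a monocyte attractant, was called lower at 89.1 against 193 CPM, and *Ccl2* (130 against 137) and *Cxcl5* (146 against 208) were called neither way. Immediate early genes were also high there, with all 10 called higher, *Egr1* at 1117 against 92.3 CPM and *Junb* at 2332 against 270.

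Most genes of the macrophage list did not share this pattern. The study also reports *S100a8*, *S100a9*, *G0s2*, *Hdc* and *Il1r2*, all on the neutrophil list here, in a macrophage subcluster. The lists therefore do not separate neutrophil RNA from that of inflammatory macrophages. On the surface side 8 of 15 genes of the macrophage list were called lower than in marked spots and 1 higher. *Mrc1*, the mannose receptor, was at 40.5 against 310 CPM and *C1qb*, a complement subunit, at 316 against 883, whereas *Arg1*, arginase of wound macrophages, was at 559 against 116. *Spp1*, osteopontin, listed with granulation tissue, was at 3967 against 449 CPM. The study gives both *Arg1* and *Spp1* as markers of another macrophage subcluster. On the deep side all 15 macrophage genes were called lower. *Trem2*, a macrophage lipid receptor, had 7 UMIs in all unmarked spots against 135 in marked spots.

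The neutrophil signal varied strongly between spots. Over the surface side its share of a spot's UMIs ran from 0 to 9.20% with a median of 2.08%, over the deep side from 0 to 0.84% with a median of 0.02%, and over marked spots from 0 to 3.63% with a median of 0.17%. Of the 601 unmarked spots, 36 lay above the richest marked spot, and all 36 were on the surface side. The piece of 32 spots in rows 43 to 49 carried most of it, at 49684 CPM with a median spot of 4.68%. Without that piece the list's log2 ratio over all unmarked spots was -0.61 in place of 0.64, so the excess of neutrophil RNA in the pooled unmarked tissue rests on those spots.

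Keratinocyte transcripts formed the other surface component. The epidermis list was at 21268 CPM on the surface side and 1289 on the deep side, with 11660 in marked spots, so it was higher on 1 side and lower on the other, and lower in the pool (4160 CPM), a direction that turned when spots were averaged equally (log2 ratio 0.16). *Krt14*, a basal keratin, was at 5003 CPM on the surface side, 2584 in marked spots and 337 on the deep side. Of the wound keratinocyte list 7 of 8 measured genes were called higher on the surface side, among them *Krt6b* (1603 against 398 CPM) and *Krt16* (1781 against 621), and of the cornified layer list 12 of 13, among them *Lor*, the main protein of the cornified envelope (3141 against 1068). In the epidermis list itself only 2 of 15 were called higher, *Krt1* and *Krt10*, keratins of the suprabasal layers. Many keratin, *Sprr* and *Lce* genes resemble each other closely, which leaves the values of single members uncertain.

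Keratinocyte and neutrophil RNA were highest in different pieces of the surface side, but both were found in each of these pieces. The epidermis list was at 35778 CPM in the piece of 30 spots and 40586 CPM in the piece of 11, and at 8635 CPM in the neutrophil-rich piece of 32. In the piece of 30 spots the neutrophil list was at 11575 CPM, and in the piece of 20 spots the lists were at 23302 and 27122 CPM. In the piece of 11 the neutrophil list took a median of 2.53% of a spot's UMIs, against 0.17% in marked spots. No unmarked spot exceeded the richest marked spot for the epidermis list, which gave 8.39% of its UMIs against 6.42% in the richest unmarked spot.

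The faint signal far from marked tissue could be read only beyond the surface side. All spots at such a distance lay in array rows 0 to 34. The surface side ran from row 34 to 56, and the deep side from row 59 to 77, the last of the array. These spots therefore cannot show which side lay closer to the background of the whole slide. In 1627 unmarked spots at 20 or more pitches from marked tissue, with a median of 32 UMIs, the epidermis list was at 19611 CPM, the neutrophil list at 10760, the shared muscle list at 27484 and the dermal matrix list at 23240. The surface side had 21268, 29089, 19884 and 21398 CPM of these lists, and the deep side 1289, 502, 67103 and 10287. For the epidermis and dermal matrix lists the surface side thus lay near the distant spots, and for the neutrophil list it was higher. When the mean profile of the distant spots was subtracted, which took 4.11% of the surface-side UMIs, the surface-side log2 ratio over marked spots went from 3.57 to 3.66 for the neutrophil list, from 0.87 to 0.88 for the epidermis list and from -1.46 to -1.47 for the dermal matrix list. RNA that spread over the slide at a higher level near the tissue than far from it was not tested.

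**Figure D4:**
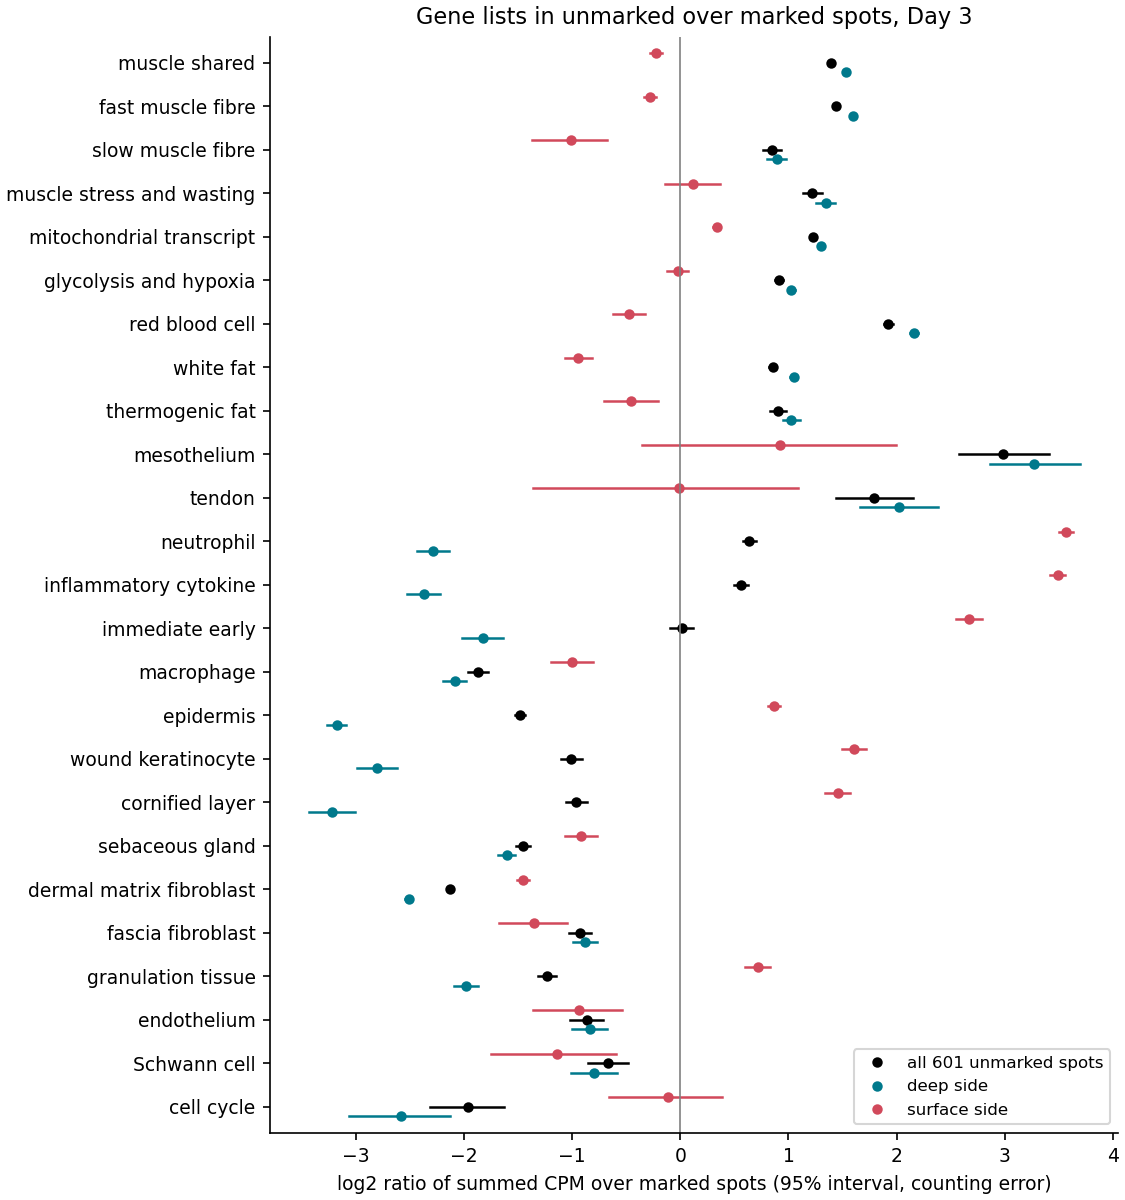
Log2 ratio of summed CPM over marked spots for 25 gene lists, with 95% counting intervals, for all 601 unmarked spots (black), the deep side and the surface side. The shared muscle list is at 1.53 on the deep side and -0.22 on the surface side, the neutrophil list at -2.29 and 3.57, and the dermal matrix and macrophage lists are below 0 on both sides.

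Dermal matrix RNA was lower in the pooled unmarked tissue and on both sides, but not in every unmarked spot. The list of 15 dermal matrix genes was at 13442 CPM in unmarked spots and 58679 in marked spots (log2 ratio -2.13, interval -2.15 to -2.10), and 12 of the 15 were called lower and 0 higher. *Col1a1* and *Col1a2*, the chains of type I collagen, were at 4298 and 3647 CPM against 22855 and 18823. *Sparc*, a collagen-binding matricellular protein, was at 1614 against 5399, and *Dcn*, decorin, at 755 against 1130, which did not reach 2-fold. On the surface side 14 of the 15 were called lower too. The list took a median of 1.24% of an unmarked spot's UMIs and 3.37% of a marked spot's, with 0.91% on the deep side and 2.03% on the surface side. The 63 spots beyond the end went the other way by this measure with a median of 4.24%, although their pooled level of 32199 CPM was below that of marked spots, and 6 of the 601 unmarked spots were at 0. The granulation tissue list had 9 of 13 genes called lower in the pool, with *Timp1*, a metalloproteinase inhibitor, at 68.2 against 548 CPM and *Cthrc1*, a gene of activated fibroblasts, at 38.7 against 248. On the surface side its summed level was higher than in marked spots (log2 ratio 0.71, interval 0.60 to 0.83). There 1 of 13 measured genes was called higher and 6 lower.

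The gene with the lowest ratio by the bound nearer to equality was *Saa3*, an acute phase protein of inflamed skin, at 86.6 against 917 CPM (log2 ratio -3.40, interval -3.72 to -3.10). On the deep side *Saa3* was at 52.2 CPM and on the surface side at 332. *Cpxm1*, a secreted carboxypeptidase-like protein, followed with 49.7 against 508 CPM, and *Mmp3*, stromelysin 1, had 48.8 against 380. *Far2* and *Elovl4*, enzymes of sebaceous and epidermal lipids, were at 21.2 against 209 CPM and 192 against 1203. Of the sebaceous list 11 of 12 measured genes were called lower, as were the hair follicle gene *Sox9* and 3 of 4 measured cell cycle genes. *Tyms*, which makes thymidylate for DNA synthesis, had 2 UMIs against 70.

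Among the 9 candidate genes of the study, 7 were called lower in unmarked tissue, where 30.2% of all genes were called lower. The study took them as potential inflammation-related genes of wound fibroblasts. The dermal matrix list was also lower (log2 ratio -2.13), and whether this bears on the candidates was not tested. *Itgbl1*, integrin beta-like 1, had 30 UMIs in 25 unmarked spots and 130 UMIs in 81 marked spots (27.6 against 74.1 CPM, log2 ratio -1.42, interval -2.05 to -0.84). *Saa3* and *Ccl7* had the lowest ratios of the set, with *Ccl7* at -2.76. *Lrrc17* (-2.08), *C4b* (-1.60), *Clec3b* (-1.56) and *Pi16* (-1.29) were also called lower. *C3*, complement component 3, was at 695 against 600 CPM and *Ccl11*, eotaxin, at 51.6 against 43.9, neither past 2-fold, and on the surface side *C3* was called lower at 291 CPM.

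Other cell types gave small lists, whose counts are to be read against the 30.2% of all genes called lower. The endothelial list was at 443 against 807 CPM with 4 of 13 measured genes called lower, *Plvap*, a protein of fenestrated capillaries, at 29.5 against 128. The fascia fibroblast list was at 958 against 1822 CPM, with 4 of 11 called lower, and both shares are near that of all genes. The Schwann cell list was at 305 against 483 CPM, with 0 of 3 called, and the pericyte and vessel muscle list at 366 against 341 CPM with 2 of 6 called lower, again near it, *Myh11* and *Mylk*, the myosin heavy chain of smooth muscle and its activating kinase. Of the mast cell list *Mcpt4* alone was measured and was called lower, and no lymphocyte gene reached 50 UMIs. The interferon-stimulated list (1323 against 1013 CPM) was mostly *Ifi27l2a*, at 1137 against 719. Its 5 measured genes had a median log2 ratio of -0.89, with 0 called higher and 1 lower.

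On the deep side alone, 496 (7.23%) of 6862 genes were called higher than in marked spots and 2627 (38.3%) lower, with a median log2 ratio of -0.68. The deep side held 861733 UMIs and the surface side 123518, so more genes could be called there, and the counts of the sides do not rank them. Its 15 genes with the highest ratio were led by *Msln* (4.37), *Mss51* (3.64) and *Upk3b* (3.65), and its lowest by *Far2* (-5.17) and *Saa3* (-4.13). Keratinocyte genes *Lgals7* and *Lce1b* were among its 15 lowest, at 110 against 1411 CPM and 3.48 against 100, and they were at 2348 and 210 CPM on the surface side. The comparisons of all unmarked spots and of each side share the same marked spots.

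**Figure D5:**
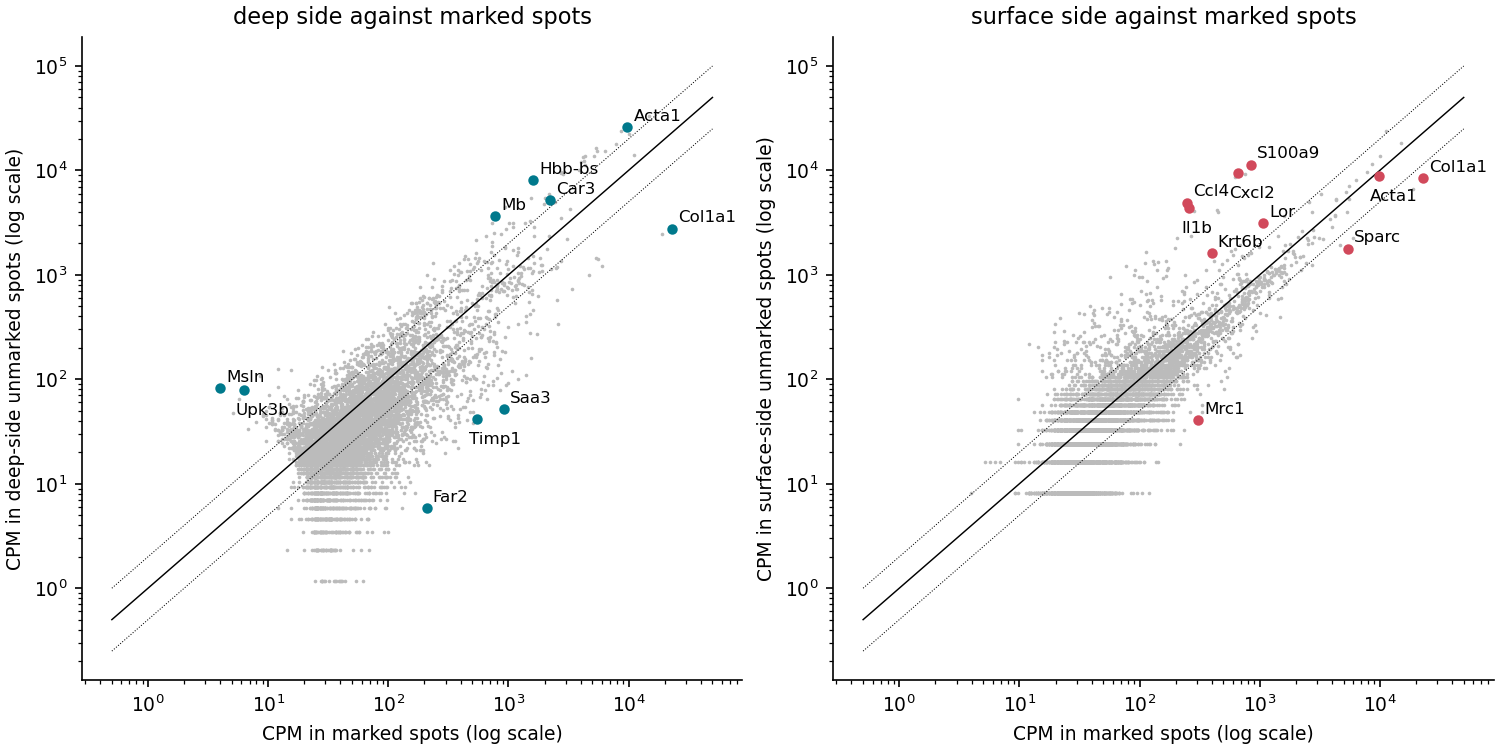
CPM of genes in deep-side (left) and surface-side (right) unmarked spots against CPM in marked spots, 1 point per gene with a UMI in both, on log axes, with equality (solid) and 2-fold lines (dotted). *Msln* and *Upk3b* stand above the deep-side cloud, *S100a9*, *Cxcl2*, *Ccl4* and *Il1b* above the surface-side cloud, and *Col1a1* lies below equality in both.

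Clustering of the 601 spots into 5 regions described the same parts without using the lists. The largest region had 227 spots, 211 of them on the deep side, and its 4 muscle lists made up a median of 20.98% of a spot's UMIs, yet 0 of its 10 leading genes were on any list. They were led by *Dmd*, dystrophin, with *Ociad2*, *Mettl22*, *Mettl21c* and *Gm12224* next. The second, with 152 spots, was led by *Hba-a1*, *Hbb-bt*, *Hbb-bs*, *Fmod* and *Hba-a2*, with *Msln* and *Upk3b* also among its 10 leading genes, and the muscle lists still took a median of 13.8% there. A region of 89 spots was led by *Lce1a1*, *2310050C09Rik*, *Lce1m*, *Lor* and *Crct1*, with 4 of its 10 leading genes from the cornified layer list, and lay on the surface side with 50 spots and beyond the end with 33. A region of 84 spots, led by *S100a8*, *Cstdc4*, *Slc15a3*, *Adam8* and *Cxcl2*, had 83 spots on the surface side. The last, of 49 spots, was led by *Cyp2e1*, *Cdo1*, *Cidec*, *Retn* and *Rbp4*, with 5 of its 10 leading genes from the white fat list, and had 45 on the deep side.

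In the same comparison on the other slides, several components recurred and some did not. Unmarked over marked, the shared muscle list had log2 ratios of 1.39, 1.08 and 0.98 on Day 3, Day 7 and Day 14, the white fat list 0.86, 1.40 and 1.28, and the red blood cell list 1.92, 1.96 and 1.68. The dermal matrix list was lower on all 3 days (-2.13, -1.39 and -0.61). For the neutrophil list the ratios were 0.64, 0.17 (interval 0.04 to 0.29) and 1.15, at 3815, 234 and 329 CPM in unmarked spots. The mesothelial list was at 271 CPM in the unmarked Day 3 spots, with 20.8 and 12.1 CPM on Day 7 and Day 14. Regenerating muscle genes were at 80.1 CPM on Day 3, 1662 on Day 7 and 583 on Day 14 in unmarked spots. Differences between the days compare 3 single sections and were not tested.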

How the data were processed

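The authors counted UMIs per gene and spot with Space Ranger 1.3.0 on mm10, per the submitters' processing notes, and the deposited matrices hold these raw counts for 32285 genes and all 4992 spots of each slide. Gene names are those of the files, and positions are from GENCODE M21 (GRCm38), which held 32158 of the 32285 identifiers. Groups were taken from the day in the labels, and marked spots from the deposited position lists. A spot may cover several cells, so no doublet caller was run, nor was a cell-type makeup estimated.

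UMIs were summed over the spots of a group and divided by all UMIs of the group, giving CPM, UMIs per 1000000. Levels carry exact Poisson intervals, shares exact binomial (Clopper-Pearson) intervals and ratios exact conditional binomial intervals, all at 95%. A gene was called where the ratio was past 2-fold and the interval left out equality, with at least 50 UMIs over both groups. A list's value sums the UMIs of its genes, and 385 of the 388 genes in the 31 lists were in the files. For clustering, genes found in 10 or more spots were ranked by variance, and the top 2000 entered a principal component analysis, whose first 20 axes went into k-means for 5 clusters (20 starts, seed 0). Deep and surface sides were set from marked spots within 4 columns.

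Genes were named as the 15 highest and 15 lowest ratios by the bound nearer to equality (also for each side, up to 20), the most abundant members of each list and those moving against it, the 10 highest levels, the leading genes of regions and pieces, and the study's 9 candidates. Some genes that this rule takes are left to the counts. The spots, lists and sides were chosen with earlier results of these data known, and the mesothelial and tendon lists after values were seen.

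Alternatives were other spot and gene minimums, other denominators, edgeR 4.0.16 TMM factors and DESeq2 1.42.0 size factors on pooled counts, subtraction of the profile of distant spots, leaving out pieces, and other clusterings. Software was R 4.3.3 and, in Python 3.11.15, scikit-learn 1.9.0, scipy 1.17.1, numpy 2.4.6, pandas 2.3.3 and matplotlib 3.10.9. Interval and clustering code was tested on simulated data.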

Additional observations from a re-analysis of the deposited data

Results flagged for a closer look

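Several gene lists had a ratio of unmarked over marked spots that lay on opposite sides of equality on Day 3 and on another day, with intervals that left out equality. The slow muscle fibre list had a log2 ratio of 0.85 on Day 3, against -1.07 for Day 7, while Day 14 gave 0.37. For inflammatory cytokines the Day 3 value was 0.56, while Day 7 gave -1.33 and Day 14 gave -1.17. The sebaceous gland list stood at -1.45 on Day 3, against 0.75 for Day 7, while Day 14 gave -0.91. For slow fibre and sebaceous genes Day 7 thus had the opposite sign to both other days. The mesothelial list was at 2.99 on Day 3, -0.29 (interval -0.68 to 0.10) on Day 7 and -0.65 on Day 14, and the tendon list at 1.79, -0.77 and 0.98. These last lists were put together after Day 3 values had been seen. Each day is 1 section and the differences between days were not tested.

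In the unmarked Day 3 spots at 20 or more pitches from marked tissue, which belong to neither the unmarked nor the marked group, the neutrophil list was at 10760 CPM and the epidermis list at 19611 CPM. All of these spots lay in array rows 0 to 34, beyond the surface side and not beyond the deep side.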

How the results depend on the processing

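Each day had 1 section, so intervals cover counting error only and spots are not replicates. No paired analysis was possible because each day had 1 section. Where a value moved, the cause was not tested unless the setting itself leaves out spots or genes. The median unmarked spot of 1032 UMIs limits single spots to abundant genes.

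The 407 genes called higher became 187 with the mean of spot CPM, 970 with TMM factors, 1028 with DESeq2 size factors and 677 with no gene minimum. The 2167 called lower became 1165, 830, 774 and 3451 under these settings, 516 without the largest piece and 517 on the surface side alone. Genes called higher were 15.8% of all called genes, 53.9% with TMM and 57.0% with DESeq2 factors.

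The log2 ratio of the shared muscle list (1.39) and that of the neutrophil list (0.64) were, in that order, 0.62 and 0.97 with the mean of spot CPM, 1.28 and 0.98 at 250 UMIs per spot, 1.51 and 0.30 at 1000 UMIs, 1.26 and 0.47 with spots beside marked ones, 1.54 and 0.79 without muscle genes in the denominator, 1.94 and 1.19 with TMM, 1.98 and 1.23 with DESeq2, and 1.53 and 0.78 without mitochondrial transcripts in the denominator. They were -0.22 and 3.63 without the largest piece, 1.44 and -0.61 without the piece of 32 spots, 1.53 and -2.29 on the deep side, and -0.22 and 3.57 on the surface side. The muscle list was at 1.42 with no marked spot within 2 rings and at 1.41 after background subtraction, and the neutrophil list at 0.53 and 0.57 without the pieces of 20 and 11 spots. Subtraction on the surface side, the sides and the denominator without mitochondrial transcripts were chosen after seeing the data.

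Over the 29 other lists and 17 settings, 30 of 493 values changed direction. Without the largest piece and on the surface side these were fast fibre (-0.27 and -0.28), slow fibre (-1.004 and -1.01), regenerating muscle (-1.21 and -0.84), epidermis (0.70 and 0.87), wound keratinocyte (1.66 and 1.61), cornified layer (0.93 and 1.45), granulation tissue (0.78 and 0.71), white fat (-0.85 and -0.94), thermogenic fat (-0.43 and -0.45) and red blood cell (-0.29 and -0.47). Muscle stress was at -0.00019 without the largest piece, and glycolysis at -0.025 and the interferon list at -0.0012 on the surface side. With the mean of spot CPM, regenerating muscle was at -0.15, the interferon list at -0.085, epidermis at 0.16, wound keratinocyte at 0.31 and cornified layer at 0.83. The cytokine list was at -0.73 without the piece of 32 spots and -2.37 on the deep side.

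No region was led by a muscle list in any of the 4 clusterings. A region led by the red blood cell list had 152 spots with 5 clusters, 0 with 4, 114 with 6 and 148 with Ward clustering. For the white fat list these were 49, 113, 45 and 58 spots. The neutrophil-led region was steadier, at 84, 84, 84 and 89 spots, as was the cornified layer one at 89, 86, 88 and 84.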
